A study of Mus musculus with 31 samples.

Results

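The subject is how much 11 mammary tumors of K5ΔNβcat mice differed from one another, gene by gene, within a set of 31 arrays that also held hyperplasias, control tissue and sorted basal cells. The members were the 11 arrays whose labels name a tumor, and no other array was used. K5ΔNβcat mice carry a transgene in which the keratin 5 promoter drives a stabilised, N-terminally truncated β-catenin, so the transgene is active in basal cells of the mammary epithelium, and all 11 tumors share it. The labels give the strain as C57BL6, whereas the methods describe breeding in a 129SV/C57BL6 background, so the animals may not have been genetically uniform. The age of each animal, its parity and its reproductive state are not in the labels, nor do they say whether each tumor came from a separate mouse. Total RNA of whole tumor tissue was hybridised to Affymetrix mouse arrays, 1 array per tumor, so the spread described here holds both biological and technical differences, and with no technical repeats these cannot be told apart.

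β-catenin relays Wnt signals to the nucleus, where it works with Tcf and Lef factors to turn on target genes. In the mammary gland, basal cells lie outside luminal cells, and luminal cells make milk during lactation. Tumors in which β-catenin is active in basal cells can take on features of skin, such as keratinised squamous layers or hair-type keratins, and a whole-tissue sample also holds fibroblasts, vessels, immune cells and any fat or muscle taken with the tumor. In such bulk RNA, fewer cells of a type and less RNA per cell cannot be told apart.

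The values are MAS5 signals, which are linear probe set intensities scaled to the same target on every array, and a signal of 30 was the background cut-off of the study. Spread is given as the standard deviation (SD) over the 11 tumors of log2(signal + 16), where an SD of 1 means that tumors typically lay a factor of about 2 from their mean. Since the offset of 16 damps dim signals, differences among signals below 30 carry little information. Of 18193 genes represented by a probe set of 1 symbol, 10897 had a median signal of at least 30 over the tumors. The array median signal ranged from 29.1 to 29.6 in tumors 1 to 3 and from 23.9 to 26.7 in tumors 4 to 11. Between 2 tumors the correlation over genes ranged from 0.908 to 0.974 with a median of 0.940, and no 2 arrays held the same values.

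Most genes differed little between tumors. The median SD of a gene was 0.203, with a 5th to 95th percentile of 0.0973 to 0.679, and 6942 of the 10897 genes had an SD under 0.25. An SD of at least 1 was found for 192 genes, which is 1.76% of those past the filter, and this share is the background against which each gene list is read below. The variable genes were not only dim ones: 75 had a median signal from 30 to 100, 73 from 100 to 500 and 44 of at least 500. A second probe set past the filter was present for 41 of the 192 genes, and its correlation over tumors with the first had a median of 0.984 and was at least 0.9 for 39 of them. The exception under 0.5 was Slc15a2, a peptide transporter, where both probe sets correlated at -0.05. For all 4675 genes with a second probe set the median correlation was 0.620, so the large differences were seen by both probe sets far more often than the small ones.

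**Figure D1:**
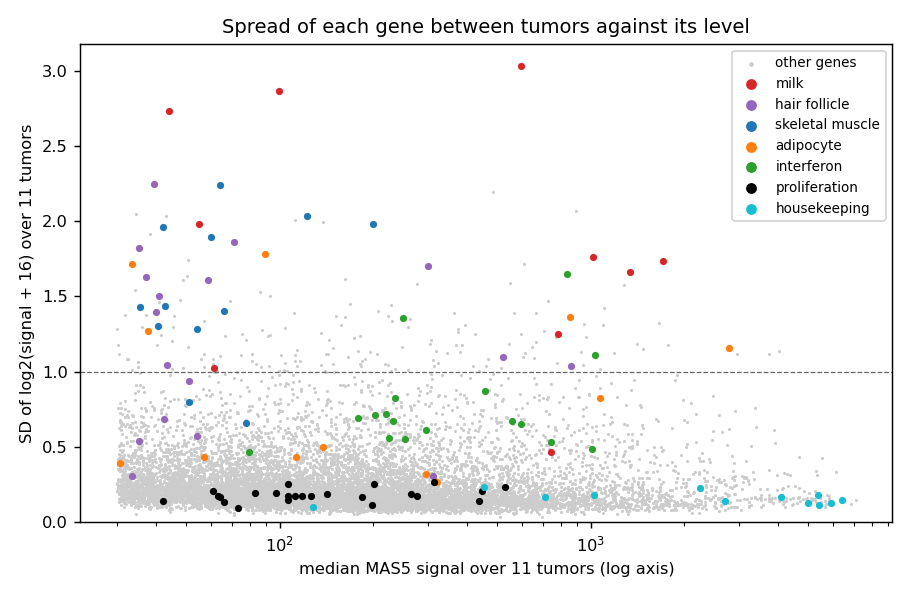
Each point is 1 of 10897 genes, with its median MAS5 signal over the 11 tumors on a log axis against its SD of log2(signal + 16) over the tumors, and 7 gene lists are coloured. The dashed line marks an SD of 1. Milk, hair follicle and skeletal muscle genes lie highest, up to 3.03 for Csn1s2a, and all proliferation and housekeeping genes lie under 0.3.

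Many of the 30 most variable genes came from few programs. Of these 30, 20 belonged to the gene lists used here, and 21 had their highest signal in tumor 1, 2 or 3. The 26 lists hold 474 entries in all, beside 10897 genes past the filter. Of the 192 genes with an SD of at least 1, 68 were highest in tumor 1, 2 or 3. Tumors 8 and 11 were highest for 31 and 28 of the 192. The first 3 genes of the ranking were all milk genes, namely Csn1s2a (SD 3.03), Glycam1 (2.87) and Wap (2.73). They were followed by the hair keratin-associated gene Krtap8-1 (2.25), the fast troponin gene Tnnc2 (2.24) and the acute-phase gene Saa1 (2.19). When tumors 1 to 3 were left out, 14 of the 30 stayed among the 30 most variable.

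Milk protein genes had the largest spread of all lists. Caseins are the main proteins of mouse milk and are made by secretory luminal cells, as are whey acidic protein (Wap) and the mucin-like Glycam1. Of 14 listed genes 10 passed the filter, and 9 of these 10 had an SD of at least 1. The signal of Csn1s2a, an α-casein, was 5445, 4631 and 6778 in tumors 1 to 3, 142, 330, 1120 and 99.3 in tumors 4 to 7, and 5.96, 595, 1369 and 0.961 in tumors 8 to 11. Tumors 1 to 3 were thus the highest, and tumors 8 and 11 lay below the cut-off.

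Wap separated the same tumors in another way. Its signal was 3797, 259 and 4828 in tumors 1 to 3, 181 in tumor 6 and 178 in tumor 10, and between 10.5 and 44.0 in the remaining 6. Tumor 2 was therefore high for Csn1s2a but much lower than tumors 1 and 3 for Wap. Lalba, the α-lactalbumin gene, failed the filter with a median of 6.90 but reached 301 in tumor 1 and 743 in tumor 3, against 39.1 in tumor 2. Csn1s2b was likewise much higher in tumors 1 and 3 than in tumor 2, at 587, 21.0 and 579 in tumors 1 to 3 and under 6 in all others.

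The other caseins were bright in every tumor. Csn2, β-casein, ranged from 172 in tumor 8 to 6004 in tumor 3 with a median of 1707 (SD 1.73), Csn1s1 from 191 to 6886 with a median of 1337 (SD 1.66), and Csn3 from 155 to 6452 with a median of 1018 (SD 1.76). The second probe sets of Csn1s2a, Csn2 and Csn3 followed the first at r = 0.998, 0.990 and 0.945. Glycam1 ranged from 0.894 to 6880 around a median of 99.7, and Btn1a1, a protein of the milk fat globule membrane, from 10.7 to 1307 around 55.1. The steadiest milk gene was Xdh, xanthine dehydrogenase, which also has uses outside milk, at 433 to 1269 (SD 0.46).

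A list level was taken as the mean log2(signal + 16) over the genes of a list that passed the filter. The milk level was 11.28, 10.35 and 11.73 in tumors 1 to 3 and 7.05 to 9.02 in the others, with tumor 6 next at 9.02 (SD 1.68, n = 11). Without tumors 1 to 3 its SD was 0.78. Outside the lists, the genes that followed the milk level most closely over 11 tumors were Fads1, a fatty acid desaturase (r = 0.95), 2300009A05Rik (0.94) and Ptpn14 (0.94), all of small range.

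Hair follicle genes stood out in the same 3 tumors. These genes encode the keratins of the hair shaft and of its inner root sheath, together with the proteins that cross-link them, and they mark cells that are building hair. Of 26 listed genes 17 passed, and 11 of the 17 had an SD of at least 1. Krtap8-1 had signals of 688, 581 and 1177 in tumors 1 to 3, then 118, 87.3, 39.4 and 8.96 in tumors 4 to 7, and 0.560, 24.5, 9.34 and 1.56 in tumors 8 to 11. Krt71, an inner root sheath keratin, was at 478, 651 and 1213 in tumors 1 to 3 and between 12.1 and 104 in the rest (SD 1.86). Both genes put tumor 3 first, and no other tumor reached tumors 1 to 3.

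Of the 17 hair genes past the filter, 11 followed the rest of the list at r of at least 0.8. Krt25, another inner root sheath keratin, had signals of 956, 1098 and 1922 in tumors 1 to 3 against 39.5 to 376 elsewhere (SD 1.70). The shaft keratins Krt33a (SD 1.82) and Krt34 (SD 1.63) reached 482 and 343 in tumor 3 and were below 6 in tumors 7, 8, 10 and 11. Trichohyalin (Tchh), an inner root sheath protein, set these tumors apart less than these keratins did. It was at 1408 in tumor 9 and 1230 in tumor 6 against 1455 to 1697 in tumors 1 to 3. Foxn1 (SD 0.31), a transcription factor of the hair follicle, was the steadiest of the list at 22.1 to 56.6. The hair list level ran from 8.12 to 8.79 in tumors 1 to 3 and from 5.60 to 6.86 in tumors 4 to 11 (SD 1.09, or 0.47 without tumors 1 to 3). The closest genes outside the lists were Krtap13-1 (r = 0.98), itself a hair keratin-associated gene, Ncoa1 (0.96) and Trp53bp1 (0.95).

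Fat cell genes formed the third set. Adiponectin (Adipoq) and resistin (Retn) are hormones secreted by fat cells, and Thrsp promotes fatty acid synthesis. Of 23 listed genes 12 passed the filter, and 5 of the 12 had an SD of at least 1. The adiponectin signal was 1004, 519 and 740 in tumors 1 to 3, 207 in tumor 9, 156 in tumor 6, 25.9 to 89.6 in tumors 4, 5, 7, 8 and 10, and 5.64 in tumor 11 (SD 1.78). Thrsp was at 516, 261 and 598 in tumors 1 to 3, at 114 in tumor 6 and at 3.28 to 44.0 in the others (SD 1.71). Car3, a carbonic anhydrase abundant in fat and muscle, was at 3584, 2410 and 3325 in tumors 1 to 3 and at 186 to 1499 elsewhere (SD 1.36).

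Not every fat gene followed this order. Fabp4, the fatty acid binding protein of fat cells and also of some vessels and macrophages, had its highest signal, 5787, in tumor 9 and its lowest, 507, in tumor 8 (SD 1.15). Lpl, lipoprotein lipase, reached 1939 in tumor 3 but also 1813 in tumor 4. Cebpa was the steadiest at 215 to 432 (SD 0.27). The adipocyte level was 9.04, 8.52 and 8.87 in tumors 1 to 3, 8.11 in tumor 6 and 7.04 to 7.84 in the others (SD 0.71, or 0.37 without tumors 1 to 3). Cyp2e1, a cytochrome P450 enzyme, followed this level at r = 0.95 and had signals of 424, 397 and 363 in tumors 1 to 3. Pik3r1 and Leng1 also followed it at r = 0.95, with SDs of 0.43 and 0.20.

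Milk, hair and fat levels were high together in tumors 1 to 3, which makes a correlation over all 11 tumors a statement about those 3 samples. Within tumors 4 to 11 (n = 8) the exact permutation test, two-sided, gave r = 0.76 and rho = 0.81 between the adipocyte and hair levels (p = 0.0291, adjusted p = 0.552 over 120 pairs of lists). In the same exact test the adipocyte and milk levels had r = 0.72 and rho = 0.76 (p = 0.0499, adjusted p = 0.552) and the milk and hair levels r = 0.40 and rho = 0.62 (p = 0.307, adjusted p = 0.689), so that none of these 3 relations passed the threshold within tumors 4 to 11. Tumors 1 to 3 also had the 3 highest array medians, 29.06 to 29.58 against 23.92 to 26.73 in the others. In the permutation test over the 11 tumors the array median followed the hair level at r = 0.88 and rho = 0.68 (p = 0.00155 and 0.0256, adjusted p = 0.0744 for r over 48 relations), the adipocyte level at r = 0.75 and rho = 0.54 (p = 0.00939 and 0.0940, adjusted p = 0.173) and the milk level at r = 0.74 and rho = 0.45 (p = 0.0108 and 0.164, adjusted p = 0.173). Without the 2 tumors farthest on the array median r was 0.74, 0.58 and 0.50, and within tumors 4 to 11 it was 0.22, -0.26 and -0.52 for hair, adipocyte and milk. List levels were also rebuilt after quantile normalization, which makes the distributions of all arrays equal. Over the 11 tumors, tumors 1 to 3 included, r was then 0.95 for adipocyte and milk, 0.94 for adipocyte and hair and 0.92 for milk and hair. The adjusted permutation p was 0.006, 0.006 and 0.0216. Whether array scaling bears on the shared pattern was not tested.

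Skeletal muscle genes had a different pattern, on and off between tumors. Striated muscle contracts through actin and myosin filaments regulated by troponins, and creatine kinase (Ckm) restores its ATP. Acta1, skeletal α-actin, had signals of 1385, 1462, 799 and 976 in tumors 3, 4, 6 and 11, of 441 and 200 in tumors 7 and 8, and of 38.5, 39.0, 56.9, 44.9 and 76.7 in tumors 1, 2, 5, 9 and 10 (SD 1.98). Ckm was at 574, 413, 220 and 139 in tumors 3, 4, 6 and 11, at 55.1 and 42.3 in tumors 7 and 8, and at 1.11 to 6.44 in tumors 1, 2, 5, 9 and 10 (SD 1.96). Both genes arranged the tumors in the same 3 tiers.

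Other sarcomere genes kept these tiers with few exceptions. Tnnc2 ranged from 0.707 in tumor 10 to 799 in tumor 3 around a median of 64.4. Myh1, a fast myosin heavy chain, differed in that tumor 8, at 563, was as high as tumors 4 and 11, at 579 and 595 (SD 2.03). Of 35 listed genes only 12 passed the filter, since most were below 30 in at least 6 tumors, and 10 of the 12 had an SD of at least 1. Among those that failed, Myh4, the fastest myosin, was at 731, 442, 253 and 217 in tumors 3, 4, 6 and 11 and under 5 in tumors 1, 2, 5, 9 and 10.

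The slow-fibre members stayed dim. Myh7, Tnnt1, Tnnc1 and Myl3 reached at most 4.37, 18.0, 23.6 and 27.4 in any tumor. Tnni1, the slow troponin I, passed the filter but did not follow the rest of the list (r = -0.19), with its highest signal, 176, in tumor 9 and its lowest, 28.5, in tumor 3. Each of the other 11 genes followed the mean of the rest at r of at least 0.8, and the median over the list was 0.98. The muscle level was 8.58, 8.51, 8.05 and 7.70 in tumors 4, 3, 11 and 6, 6.71 and 6.46 in tumors 7 and 8, and 5.14 to 5.42 in the remaining 5 (SD 1.43). The closest genes outside the lists were Hspb6, a small heat shock protein of muscle (r = 0.95), Ddhd1 (0.89) and Eef1a2 (0.89), the form of elongation factor 1 found in muscle and neurons.

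Muscle did not go with milk. Tumor 3 was high in both, tumors 1 and 2 were high in milk and low in muscle, and tumors 4 and 11 were the reverse.

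**Figure D2:**
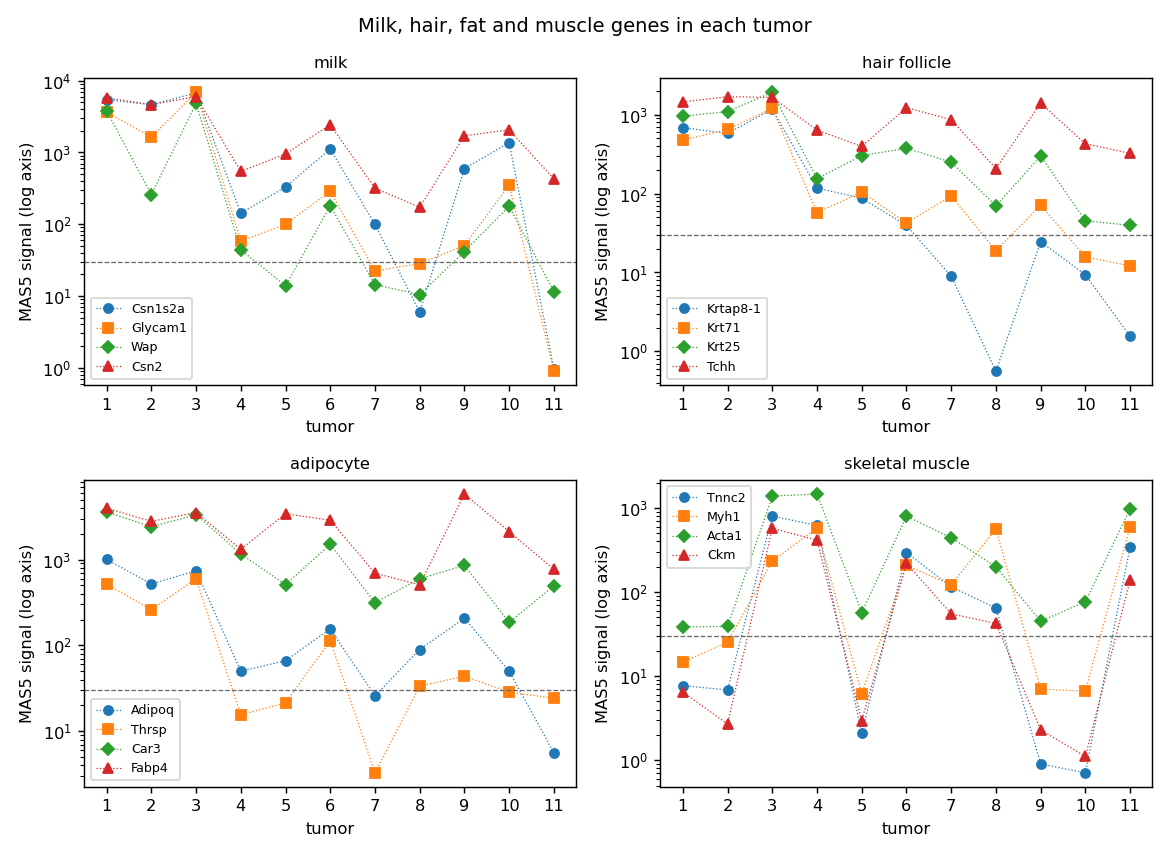
MAS5 signals on a log axis of 4 genes from each of 4 lists in tumors 1 to 11, with dotted lines only to guide the eye and a dashed line at the cut-off of 30. Apart from Fabp4, the milk, hair and fat genes peak in tumors 1 to 3, for instance Adipoq at 1004, 519 and 740. The muscle genes are high in tumors 3, 4, 6 and 11 and low in tumors 1, 2, 5, 9 and 10.

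The upstream sequences of a pair of milk, hair and muscle genes each are shown because the members of each pair varied together over the tumors. They are the 250 bases before the transcription start as RefSeq gives it on GRCm38.p6, read 5′ to 3′ on the gene's strand. Csn2 lies at chr5:87699426-87699675 on the minus strand, Wap at chr11:6638650-6638899 (minus), Krt71 at chr15:101743098-101743347 (minus), Krt25 at chr11:99322952-99323201 (minus), Acta1 at chr8:123894776-123895025 (minus) and Ckm at chr7:19410844-19411093 (plus). Capitals mark every match, on either strand, to TATAAA (the core of a TATA box), TTCNNNGAA (the form bound by Stat factors), CAGCTG (an E-box) or the CArG box bound by serum response factor.
Csn2: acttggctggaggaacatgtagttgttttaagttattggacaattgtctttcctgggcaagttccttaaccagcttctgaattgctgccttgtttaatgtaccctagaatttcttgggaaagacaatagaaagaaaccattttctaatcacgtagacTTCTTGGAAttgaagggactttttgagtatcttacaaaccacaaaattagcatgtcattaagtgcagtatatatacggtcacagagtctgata
Wap: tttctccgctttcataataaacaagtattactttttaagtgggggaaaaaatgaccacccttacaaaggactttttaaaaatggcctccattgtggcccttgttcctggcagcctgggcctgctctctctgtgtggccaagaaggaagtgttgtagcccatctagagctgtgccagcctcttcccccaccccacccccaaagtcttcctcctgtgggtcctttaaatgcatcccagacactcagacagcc
Krt71: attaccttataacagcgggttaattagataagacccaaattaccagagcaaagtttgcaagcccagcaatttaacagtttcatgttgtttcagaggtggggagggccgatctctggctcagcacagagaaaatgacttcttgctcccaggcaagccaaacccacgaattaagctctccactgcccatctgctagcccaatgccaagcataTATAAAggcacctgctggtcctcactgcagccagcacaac
Krt25: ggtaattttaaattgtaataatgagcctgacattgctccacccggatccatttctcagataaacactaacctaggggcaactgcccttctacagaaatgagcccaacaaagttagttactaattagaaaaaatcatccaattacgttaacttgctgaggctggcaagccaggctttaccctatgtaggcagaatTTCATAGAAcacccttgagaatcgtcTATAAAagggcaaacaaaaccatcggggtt
Acta1: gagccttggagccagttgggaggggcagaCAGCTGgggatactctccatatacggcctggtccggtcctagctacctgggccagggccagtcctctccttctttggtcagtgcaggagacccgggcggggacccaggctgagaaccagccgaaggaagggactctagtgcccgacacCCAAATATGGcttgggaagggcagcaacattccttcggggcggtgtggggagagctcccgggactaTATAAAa
Ckm: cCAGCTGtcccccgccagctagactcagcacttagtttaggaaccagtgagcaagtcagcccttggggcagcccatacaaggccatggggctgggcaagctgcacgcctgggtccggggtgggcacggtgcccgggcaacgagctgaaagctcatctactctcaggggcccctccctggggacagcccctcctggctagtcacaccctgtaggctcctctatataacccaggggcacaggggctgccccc
The Csn2 window held TTCNNNGAA 93 bases before the start, and the Wap window held none of the 4 motifs. Krt71 and Krt25 both held TATAAA, 40 and 30 bases before the start, and Krt25 also held TTCNNNGAA. Acta1 and Ckm both held CAGCTG, and Acta1 also held TATAAA and a CArG box. No 2 matches overlapped. Of 27018 genes with such a window, 14.3% held TATAAA, 8.13% TTCNNNGAA, 14.7% CAGCTG and 1.62% a CArG box in at least 1 of their windows. Among the genes of the lists past the filter, CAGCTG was found for 6 of 10 muscle genes, TTCNNNGAA for 3 of 6 milk genes and TATAAA for 9 of 14 hair genes with a window. TATAAA was also found for 5 of 12 interferon, 9 of 23 squamous, 3 of 10 muscle, 1 of 6 milk and 1 of 7 adipocyte genes. TTCNNNGAA was found for 3 of 12 interferon, 2 of 14 hair, 2 of 23 squamous, 0 of 10 muscle and 0 of 7 adipocyte genes. TATAAA and TTCNNNGAA were thus not particular to 1 list. CAGCTG was found for 3 of 23 squamous, 2 of 12 interferon, 1 of 14 hair, 1 of 7 adipocyte and 0 of 6 milk genes. These matches describe the letters in the windows and nothing of what binds there.

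Immune cells were present in all tumors but in different kinds. The pan-leukocyte and macrophage list had 22 of 22 genes past the filter and 0 with an SD of at least 1, while its median gene SD was 0.43 against 0.203 over all genes, and 16 of the 22 followed the rest of the list at r of at least 0.8. Ptprc (CD45), carried by all leukocytes, ranged from 489 in tumor 9 to 1206 in tumor 10 with a median of 952, and Csf1r, the receptor that macrophages depend on, from 1298 in tumor 9 to 2931 in tumor 5 with a median of 1861. The genes of largest spread were the fungal pattern receptor Clec7a (231 to 1795, SD 0.84), the scavenger receptor Cd163 (35.1 to 347, SD 0.79) and Trem2 (25.9 to 157, SD 0.56), and the steadiest was Adgre1, the F4/80 antigen (185 to 285, SD 0.18). The list level was lowest in tumor 9 (8.50) and highest in tumor 4 (9.64), and tumors 1, 7 and 9 had the 3 lowest values of Ptprc. Ltb (r = 0.98), Selplg (0.98) and Arrb2 (0.97) followed it outside the lists.

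T and natural killer cell genes picked out tumors 10 and 11. The granzymes Gzma and Gzmb are proteases that killer cells deliver into target cells, and the Cd3 chains are part of the T cell receptor complex. Gzmb was at 289 and 293 in tumors 10 and 11, at 234 in tumor 6 and at 22.3 to 89.95 in the other 8 (SD 1.09). Gzma was at 269, 223 and 145 in tumors 10, 11 and 6 and at 6.37 to 79.4 elsewhere (SD 1.28). Cd3g was at 112 and 144 in tumors 10 and 11 and at 16.1 to 75.0 in the others, with tumor 6 at 75.0. Of 18 listed genes 11 passed and 2 of the 11 had an SD of at least 1. The defining gene Cd3e failed the filter with 5.47 to 48.0, Zap70, a kinase of the receptor, had its lowest signal in tumor 6 at 9.91 (SD 0.82), and Cd5 was the steadiest at 21.8 to 46.8 (SD 0.23). Txnrd1 (r = 0.96), the immune checkpoint ligand Pdcd1lg2 (0.95) and the chemokine Ccl5 (0.94) followed the level outside the lists.

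The level of the interferon-induced genes was also highest in tumors 10 and 11. Cxcl9, a chemokine that attracts T cells, was at 3066 and 3425 in tumors 10 and 11, at 2638 in tumor 6 and 1837 in tumor 4, and at 111 to 941 in the others (SD 1.65). Cxcl10 ranged from 70.7 in tumor 9 to 1125 in tumor 10 (SD 1.35), and Gbp2, a guanylate-binding protein, from 265 in tumor 9 to 2392 in tumor 11 (SD 1.11). Of 21 listed genes 17 passed and 3 had an SD of at least 1. Of the 17, 15 followed the rest of the list at r of at least 0.8, with a median r of 0.95. The steadiest, Mx1, still ranged from 28.3 to 126 (SD 0.47). The level ran from 7.36 in tumor 9 and 7.54 in tumor 7 to 9.36 in tumor 10 and 9.48 in tumor 11. Tumor 4 came next at 9.08, followed by tumor 6 at 9.00. In the T and NK cell level tumor 4, at 5.85, lay below tumors 6, 2 and 8 at 6.18, 6.01 and 6.00. The relation between these levels was not tested.

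Antibody genes followed neither of these. Jchain, which joins antibody units in plasma cells, was at 1877 in tumor 8 and 1221 in tumor 3, at 729 in tumor 11 and 580 in tumor 2, and at 93.2 to 396 in the other 7 (SD 1.31). Igha, the heavy chain of IgA, was highest in tumor 8 (4153), tumor 11 (2875) and tumor 9 (2300) and lowest in tumor 1 (224, SD 1.32). Ighm, that of IgM, was highest in tumor 3 (3725) and tumor 2 (2196) and lowest in tumor 10 (96.5, SD 1.39). The classes of antibody thus had different orders over the tumors.

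B cell surface genes gave another order again. Cd79a, part of the B cell receptor, was below 30 in all tumors but tumor 2, where it was 51.6, and Ms4a1 (CD20) and Cd79b reached 73.9 and 60.9 in tumor 2 and at most 19.2 and 23.5 in any other. Of 15 listed genes 6 passed, and 3 of the 6 had an SD of at least 1, with Cd22 the steadiest at 26.4 to 101 (SD 0.46). The level was highest in tumors 8, 11, 3 and 2 (8.69, 8.51, 8.50 and 8.16) and 6.67 to 7.78 in the others. Iglv1 and Igkv8-30, light chain genes outside the lists, followed it at r = 0.94 and 0.93, and Lrrc8d at 0.87.

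The mean level of the neutrophil genes was highest in tumor 6, though not every gene followed it. The calprotectin gene S100a8, which keratinocytes also express, was bright in all tumors, at 4143 to 8057 with a median of 6120 (SD 0.33). Mmp8, neutrophil collagenase, was at 905 in tumor 6, 336 in tumor 4 and 53.4 to 160 in the rest (SD 1.07), and Ngp, a granule protein of immature neutrophils, was at 544 and 508 in tumors 2 and 9 and at 20.8 in tumor 8 (SD 1.31). Il1b, interleukin 1β, ranged from 218 in tumor 9 to 1730 in tumor 6 (SD 0.97). Of 17 listed genes 10 passed and 2 had an SD of at least 1. The list was loose, with 4 of the 10 genes at r of at least 0.8 with the rest and a median r of 0.545. The level in tumor 6 was 9.60 against 8.21 to 8.97 in the others, and without tumor 6 its SD was 0.26 in place of 0.40. Of the 16 lists whose relations were tested, no other had an SD that changed by more than 1.5 times when a single tumor was left out. Its followers outside the lists were Tatdn2, Ccdc71l and 1600014C10Rik (all r = 0.93).

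Among squamous genes, filaggrin, loricrin and Krt10 had the largest spread. Keratinocytes switch from Krt5 and Krt14 to Krt1 and Krt10 as they leave the basal layer, and then make filaggrin (Flg) and loricrin (Lor) for the cornified layer. Of 39 listed genes 35 passed, and 3 of the 35 had an SD of at least 1, namely Flg, Lor and Krt10. Loricrin was at 2603 and 2442 in tumors 5 and 9 and 1864 in tumor 7, at 963 to 1110 in tumors 1 to 3, at 477 to 631 in tumors 4, 6, 8 and 10, and at 117 in tumor 11 (SD 1.23). Filaggrin ranged from 164 in tumor 11 to 2697 in tumor 9 with a median of 1096 (SD 1.31). Krt10 was bright, at 2477 to 7921, in every tumor but tumor 11, where it was 388 (SD 1.14).

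Other keratins of the same list spread less. Krt6b was the steadiest at 4786 to 6903 (SD 0.15), followed by Krt6a at 4133 to 6842 (SD 0.20). Involucrin (Ivl), an early envelope protein, was at 1334 in tumor 11, above the 890 of tumor 3 and the 457 of tumor 8, so tumor 11 was not low for every gene of the list. The squamous level was 10.63 and 10.49 in tumors 9 and 5, 9.11 in tumor 11 and 9.59 to 10.19 elsewhere (SD 0.43). Klk11 (r = 0.98), the ceramidase Acer1 (0.96) and Thop1 (0.96) followed it outside the lists. Krt4, a keratin of wet, non-cornified epithelia, failed the filter with a median of 29.5 and was at 3427 in tumor 8, against 297 and 294 in tumors 7 and 2 and at most 107 elsewhere.

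The basal list had a median gene SD of 0.39, and its keratins Krt5 and Krt14 spread less than that. Krt5 ranged from 1810 in tumor 2 to 3678 in tumor 9 (SD 0.29) and Krt14 from 3531 to 6180 in the same tumors (SD 0.24), with medians of 2841 and 4293. Of 18 listed genes 16 passed and 1 had an SD of at least 1. That gene, Krt15, marks stem-like basal keratinocytes of skin and was at 1733 in tumor 8 and 1050 in tumor 3 and at 58.5 in tumor 11 (SD 1.25), and it did not follow the rest of the list (r = -0.47). The adhesion genes Col17a1 (98.3 to 545, SD 0.63) and Dsc3 (389 to 1829, SD 0.60) were both lowest in tumor 8 and highest in tumor 9, and Itgb4 was the steadiest (111 to 175, SD 0.18). The smooth muscle list, carried by myoepithelial cells and vessel walls, had 13 of 17 genes past the filter and 0 with an SD of at least 1. Acta2, smooth muscle actin, ranged from 1473 in tumor 11 to 3018 in tumor 7 (SD 0.35), Actg2 from 66.1 to 629 (SD 0.96), Mylk from 107 to 552 (SD 0.68), Tagln from 520 to 1587 (SD 0.53) and Tpm2 from 1327 to 2119 (SD 0.23). The genes outside the lists closest to the basal level were Zbtb5 (r = 0.94), Ppp1r14c (0.93) and Tuba4a (0.92), and those closest to the smooth muscle level Mecom (0.93), Bms1 (0.85) and Usp5 (0.85).

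Luminal genes differed in more than 1 way. Krt8 and Krt18 are the keratins of luminal cells, Elf5 is a transcription factor of milk-forming progenitors, and Esr1, the estrogen receptor, marks hormone-sensing cells. Krt18 was highest in tumor 8 (2713) and lowest in tumors 5 and 9 (585 and 714), with a median of 1640 (SD 0.67). Elf5 was at 515, 563 and 936 in tumors 1 to 3, at 358 in tumor 8 and at 49.0 to 194 in the others (SD 1.25). Krt7 ran against this, from 149 and 168 in tumors 8 and 3 to 1846 in tumor 7 (SD 1.23), and Krt19 reached 1460 in tumor 8 and was 192 and 201 in tumors 5 and 9 (SD 0.98). Of 16 genes of the keratin and junction list 15 passed and 2 had an SD of at least 1, and the serine protease inhibitor Spint1 was the steadiest at 270 to 515 (SD 0.25). In this list 2 of the 15 genes followed the rest at r of at least 0.8, and the median r was 0.52.

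Hormone-sensing genes were not high in all 3 of the tumors with much milk RNA. Esr1 was at 381 in tumor 1, 152 in tumor 2 and 104 in tumor 3, at 187 in tumor 7 and at 89.1 to 158 in the rest (SD 0.56). Foxa1, which opens chromatin for the estrogen receptor, was at 228, 212 and 190 in tumors 1, 2 and 7, at 66.2 in tumor 3 and at 22.5 to 76.2 elsewhere (SD 1.03), and Cited1 at 189, 167, 120 and 88.9 in tumors 1, 2, 7 and 3 and at most 36.5 elsewhere (SD 1.09). Tbx3 ranged from 83.3 to 385 (SD 0.70) and Wnt4, the steadiest, from 147 to 240 (SD 0.23). Of 12 listed genes 7 passed and 2 had an SD of at least 1. The list was loose, with 1 of the 7 genes at r of at least 0.8 with the rest and a median r of 0.68. Mecr (r = 0.92), Tsr2 (0.92) and Epb41l5 (0.90) followed this level outside the lists, and Tmem170 (0.93), Ift22 (0.91) and Pwwp2b (0.90) that of the keratin and junction list.

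The mean levels of the fibroblast and vessel lists varied moderately and in the same direction. Col1a1, the main collagen of connective tissue, was at 845 in tumor 2, 1511 and 1543 in tumors 1 and 3, and 2030 to 4704 in tumors 4 to 11, highest in tumor 5 (SD 0.74). The genes of largest spread were Dpt (72.5 to 671, SD 1.06), Lum (396 to 2718, SD 0.89) and Pdgfra (155 to 969, SD 0.84), and the steadiest was Postn (3425 to 5345, SD 0.23). Of 22 fibroblast and matrix genes 21 passed and 1 had an SD of at least 1. Dermatopontin (Dpt) and decorin (Dcn) did not follow the collagens, with r = 0.06 and -0.25 to the rest, and Dcn was highest in tumor 8 at 5833.

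Vessel genes had a narrower range. Pecam1 (CD31) ranged from 106 in tumor 2 to 231 in tumor 11 with a median of 145 (SD 0.36), Vwf from 35.7 in tumor 7 to 260 in tumor 5 (SD 0.67), Flt1 from 82.1 to 325 (SD 0.51), Cdh5 from 42.4 to 177 (SD 0.50) and Erg, the steadiest, from 26.8 to 41.7 (SD 0.14). All 17 passed and 0 had an SD of at least 1. The vessel genes did not move as 1 set, since 1 of the 17 followed the rest at r of at least 0.8. The median r with the rest was 0.56, against 0.88 in the fibroblast and matrix list, where 12 of 21 genes reached 0.8. The fibroblast level ran from 9.77 in tumor 2 to 11.13 in tumor 5, and the endothelial level from 6.58 in tumor 2 to 7.25 in tumor 10.

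The fibroblast and endothelial levels were correlated over the 11 tumors. In the permutation test with 100000 resamples, two-sided, Pearson's r was 0.88 (p = 0.00048, adjusted p = 0.0177 over 120 pairs) and Spearman's rho 0.94 (p = 0.00011, adjusted p = 0.0132). Without tumors 5 and 10, the 2 farthest on the fibroblast level, r was 0.77, and within tumors 4 to 11 it was also 0.77 (n = 8, exact permutation p = 0.0287, adjusted p = 0.552). The adjusted p missed the threshold of 0.05 when tumor 2, 5 or 10 was left out (0.096, 0.051 and 0.0523) and when the median over genes replaced the mean (r = 0.69, adjusted p = 0.217). Adgra2, an adhesion receptor of vessel growth, was the gene outside the lists closest to both levels (r = 0.96 and 0.95). Rpl39l and Arhgef25 (both r = 0.95) followed the fibroblast level, and Mmrn2 (0.93) and Adgrf5 (0.91) the endothelial one. Both levels are means over the same arrays, which share the scaling.

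**Figure D3:**
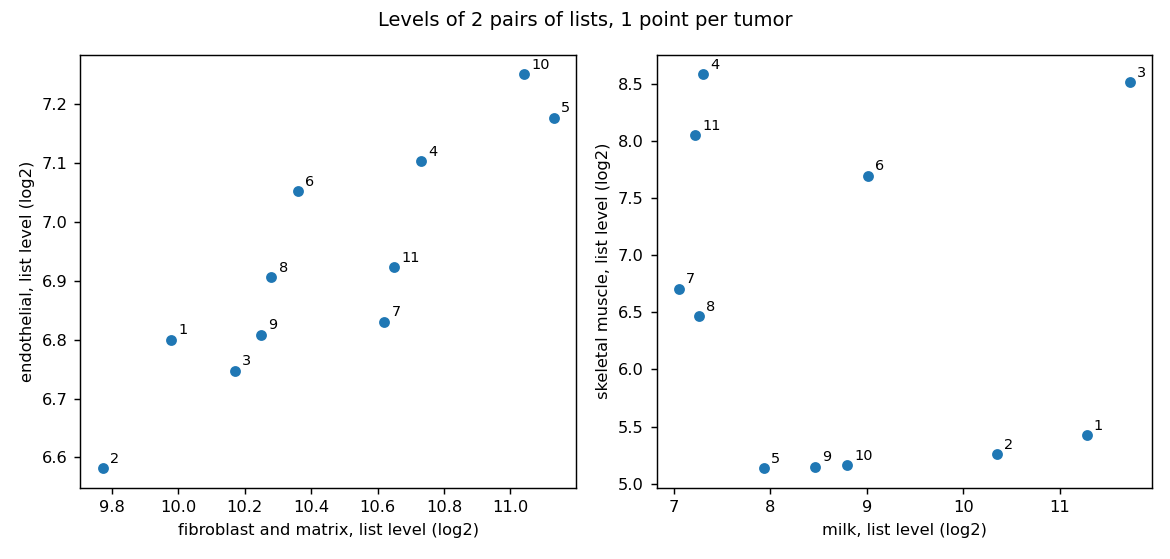
Each numbered point is 1 tumor, placed by its list levels (mean log2(signal + 16) over the genes past the filter). In the left panel the endothelial level climbs with the fibroblast level from tumor 2 (9.77 and 6.58) to tumors 5 and 10, and in the right panel tumor 3 is high in milk and muscle, tumors 1 and 2 in milk alone, and tumors 4, 6 and 11 in muscle.

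The relations among all 16 lists were tested as 120 pairs. By Pearson's r 4 pairs passed an adjusted p of 0.05, all positive, and these were the fibroblast and endothelial pair and the 3 pairs among milk, hair and adipocyte levels. At an unadjusted p under 0.05 there were 18 pairs, and by Spearman's rho 7 passed the adjusted threshold. Besides these 4, they included negative relations of the level of the loose hormone-sensing luminal list with the endothelial and the fibroblast level. In the permutation test of rho these had rho = -0.88 (adjusted p = 0.0195) and rho = -0.84 (adjusted p = 0.0399). The leukocyte and macrophage level and the neutrophil level had rho = 0.85 (adjusted p = 0.0336). By Pearson's r these pairs missed the threshold (permutation test, adjusted p = 0.109, 0.176 and 0.222). Within tumors 4 to 11, 0 of 120 passed the adjusted threshold in the exact permutation test. Against the array median and the 3′ to 5′ signal ratios of the Gapdh and actin control probe sets, 0 of 48 relations passed the adjusted threshold in the permutation test and 6 had an unadjusted p under 0.05. Of these 6, 5 were relations of the hair, adipocyte and milk levels, 3 of them with the array median as given above and 2 with the actin 3′ to 5′ ratio (hair r = 0.68, rho = 0.65, permutation p = 0.0218, adjusted p = 0.262, and adipocyte r = 0.66, rho = 0.65, permutation p = 0.0289, adjusted p = 0.277), and the sixth was that of the fibroblast level with the Gapdh ratio (r = 0.63, rho = 0.66, permutation p = 0.0379, adjusted p = 0.303). Without the 2 farthest tumors these 3 values of r were 0.53, 0.51 and 0.69. Muscle was related to no list at an adjusted p under 0.05.

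**Figure D4:**
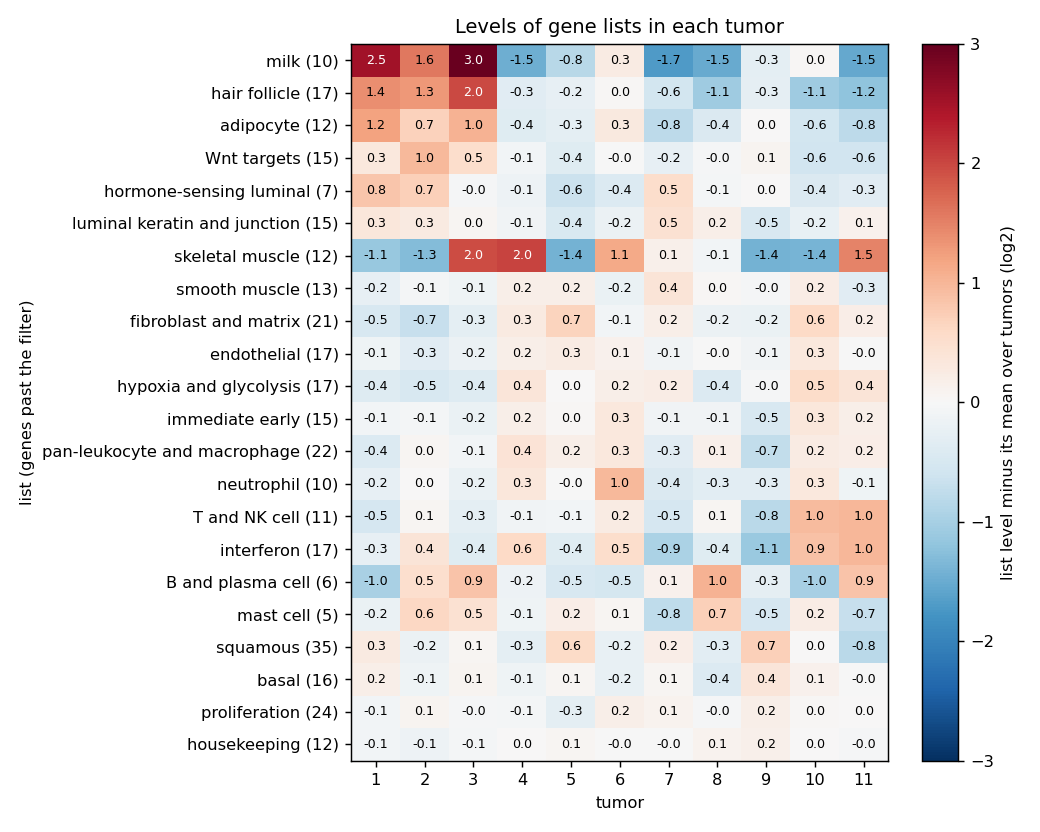
Rows are 22 gene lists with the number of genes past the filter, columns are tumors 1 to 11, and each cell gives the list level minus its mean over the 11 tumors in log2 units. The milk row runs from 2.97 in tumor 3 to -1.71 in tumor 7 and the muscle row is above 1 in tumors 3, 4, 6 and 11, whereas no proliferation or housekeeping value is farther from 0 than -0.30.

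Wnt target genes belong to the pathway that the transgene turns on. Axin2 and Notum are feedback inhibitors that Wnt signals induce, and Lgr5 and Lgr6 are R-spondin receptors. Axin2 ranged from 80.9 in tumor 5 to 231 in tumor 2 (SD 0.36) and Notum from 30.03 in tumor 10 to 147 in tumor 2 (SD 0.55). Wif1, a secreted Wnt inhibitor, was at 629, 1035 and 842 in tumors 1 to 3, at 765 in tumor 6 and at 108 to 564 in the others (SD 1.08). Dkk1, another inhibitor, was highest in tumors 2, 7 and 11 (544, 399 and 357) and lowest in tumor 10 (26.6, SD 1.03). Lgr6 was at 156, 179 and 257 in tumors 1 to 3, at 107 in tumor 9 and at 18.9 to 63.7 elsewhere (SD 1.00).

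Of 21 listed Wnt targets 15 passed the filter and 3 had an SD of at least 1, with Wnt10a the steadiest at 96.9 to 207 (SD 0.25). Myc ranged from 97.0 in tumor 11 to 298 in tumor 1 with a median of 230 (SD 0.39), and was at 177 or above in all tumors but tumor 11. The level of the list was 7.65, 8.30 and 7.86 in tumors 1 to 3, 6.76 and 6.77 in tumors 11 and 10 and 6.97 to 7.42 in the others (SD 0.46). These 3 tumors are also those with the high hair level, and Lgr6 grouped with the hair keratins below.

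Proliferation genes serve DNA replication, the spindle and mitosis, and their RNA is made mainly in cycling cells. Their median SD of 0.18 was close to the 0.203 of all genes. All 24 measured genes of 25 passed, 0 had an SD of at least 1, and the highest was Ube2c with 232 to 421 (SD 0.27), followed by Birc5 (138 to 259, SD 0.25) and Bub1 (70.7 to 155, SD 0.25). Mki67, the gene of the Ki67 antigen, was at 384 to 492 with a median of 437 (SD 0.14), and Cenpe at 60.2 to 82.0 (SD 0.10). The level was 6.98 in tumor 5 and 7.19 to 7.45 in the others (SD 0.14), and the genes followed one another with a median r of 0.75. Nup133 (r = 0.91), Mcm5 (0.91) and Cks1b (0.89) followed it outside the list, the last 2 of them genes of the cell cycle.

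Of 4314 genes with a median signal of at least 200, the 10 with the lowest SD were Stx5a, a syntaxin of the Golgi (487 to 530, SD 0.036), the proton pump subunits Atp6v1d (658 to 723) and Atp6v1f (920 to 1040), Ugp2 (541 to 607), Trmt112 (831 to 954), the transcription factor Stat3 (1260 to 1421), the ubiquitin-conjugating enzyme Ube2e3 (632 to 740), Rtraf (1151 to 1309), Cryzl1 (215 to 250) and Tm9sf2 (2091 to 2392). The SD of the last of these was 0.058. The housekeeping list, often used for scaling, had an SD of its level of 0.09. Within it Tbp was the steadiest at 110 to 143 (SD 0.10), and Gusb (348 to 592, SD 0.23), Ywhaz (2003 to 3207, SD 0.23) and Hprt (808 to 1273, SD 0.18) were the most variable.

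Hypoxia and early response genes lay between these extremes. Of 17 hypoxia and glycolysis genes all passed and 0 had an SD of at least 1, with P4ha2, a collagen prolyl hydroxylase, at 55.7 to 366 (SD 0.90), Car9 at 47.9 to 206 (SD 0.64), Bnip3 at 303 to 1093 (SD 0.61) and Ldha, lactate dehydrogenase, the steadiest at 2249 to 3606 (SD 0.22). The level was 8.22 to 8.33 in tumors 1, 2, 3 and 8 and 8.67 to 9.25 in the others, highest in tumor 10. Of 16 immediate early genes 15 passed and 0 had an SD of at least 1. Dusp1 (312 to 1247, SD 0.61), Ccn1 (229 to 946, SD 0.60) and Ier3 (556 to 2072, SD 0.59) had the largest spread and Jun the smallest (492 to 699, SD 0.18).

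Genes that varied together were then grouped without the lists. The 200 most variable genes were clustered by the correlation of their values over tumors, and 177 of them fell into 9 groups of at least 5 genes. Since the genes were clustered on these values, the tumors in which a group is high are a description. The largest group held 49 genes, among them 9 milk, 11 hair follicle and 5 adipocyte genes with Saa1, Saa2, Elf5, Foxa1, Wif1 and Lgr6, and its level was highest in tumor 3 (9.72) and lowest in tumor 11 (6.25). A group of 28 genes held Cxcl9, Cxcl10, Gzma, Gzmb, Gbp2 and several matrix metalloproteases, highest in tumor 6 (9.96) and lowest in tumor 9 (6.89).

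The other groups followed the programs above or single tumors. A group of 25 genes led by Prl8a6, a gene of the prolactin family, with Spink12, Nts, Mmp10, Mmp3 and Krt7 was highest in tumor 11 (9.13) and lowest in tumor 8 (6.00), and 22 genes with Flg, Lor, Krt10 and Krt77 were highest in tumor 9 (9.36) and lowest in tumor 11 (6.22). A group of 21 genes led by Aldh3a1 and Il17rb was highest in tumor 8 (9.80). The muscle group was the tightest, with 10 of its 11 genes from the muscle list, the fatty acid transporter Cd36 as the other, and a median r of 0.97 between its genes. The smaller ones held 9 genes with Krt15 and Serpinb7, 7 genes with Retnla, Dpt, Pi16 and Clec10a, of which only Dpt is in the fibroblast and matrix list, and 5 antibody genes, highest in tumors 8, 3 and 8.

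Among the 30 most variable genes outside the lists, several were high in 1 or 2 tumors. Fabp3, a fatty acid binding protein of muscle and mammary gland, was at 2468 in tumor 3, 563 and 379 in tumors 2 and 1 and at most 76.7 elsewhere. Prl8a6 was at 1282 in tumor 11 and 318 in tumor 4 and below 7 in tumors 1, 2, 3 and 8. Aldh3a1, an aldehyde dehydrogenase, was at 2568 in tumor 8 and 849 in tumor 6 around a median of 112, and Il17rb, the receptor of interleukin 25, was at 1178 in tumor 8 and 669 in tumor 2 around a median of 50.3. Spink12 ranged from 33.6 in tumor 8 to 3151 in tumor 9. Saa1 was at 4051, 2155 and 1759 in tumors 3, 1 and 6 and at 17.8 in tumor 7, and its neighbour Saa2 had the same 3 tumors on top. Genes of this family are near-identical, so their probe sets may share signal.

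**Figure D5:**
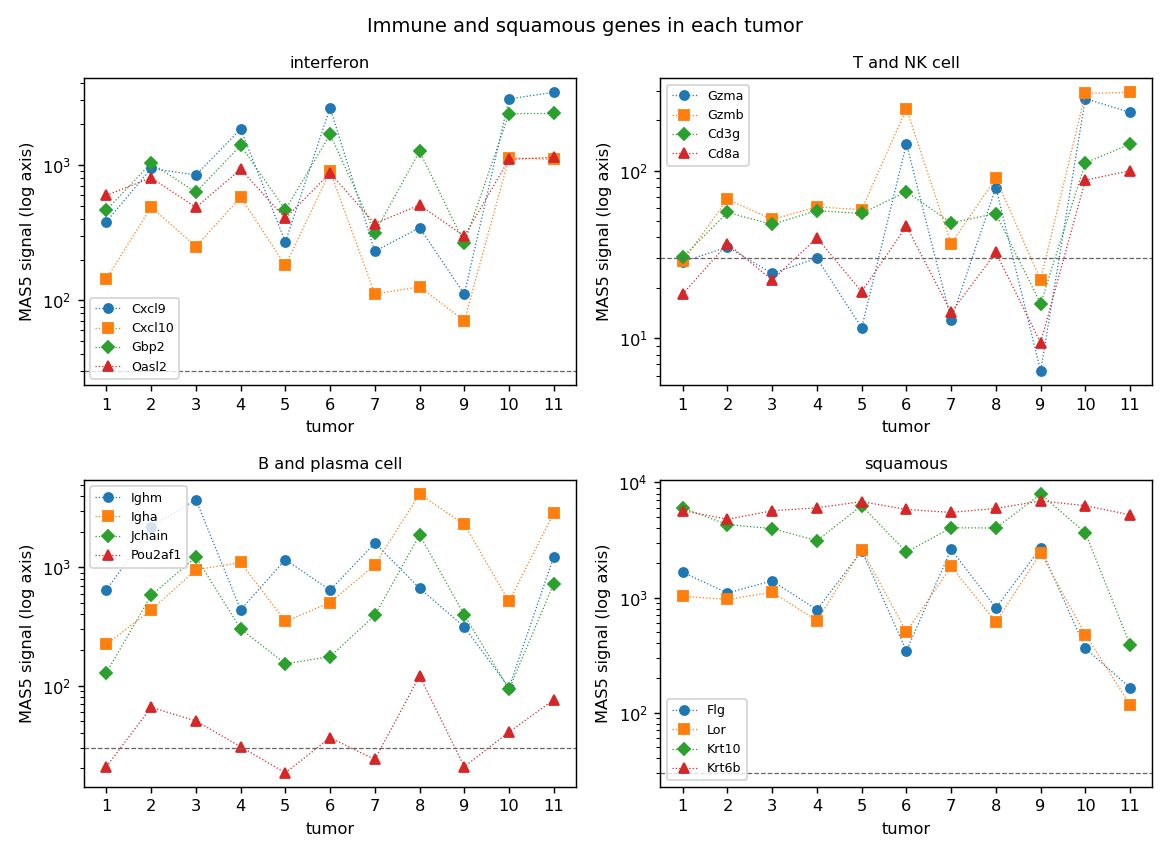
MAS5 signals on a log axis of 4 genes from each of 4 lists in tumors 1 to 11, with dotted lines only to guide the eye and a dashed line at the cut-off of 30. Cxcl9 and the granzyme genes are highest in tumors 10, 11 and 6, antibody genes in other tumors for each class, and Krt10 is below 2477 in tumor 11 alone (388), while Krt6b is flat.

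Variance over all genes was spread over several directions. In a principal component analysis of the 10897 genes the first 3 components held 31.1%, 20.0% and 13.1% of the variance. The first set tumors 1, 2, 3 and 9 (scores -27.3, -22.1, -25.5 and -17.9) against tumors 11, 10, 6 and 4 (28.5, 23.9, 17.1 and 15.6), with Csn1s2a, Glycam1 and Wap at one end and Prl8a6, Prl8a9 and Uox at the other. The second set tumor 9 (-31.5) against tumor 8 (26.3). The third had tumor 8 at 30.8, where Serpinb7, BC023105 and Guca2a led, and tumor 3 at the other end at -14.6. Csn1s2a, Glycam1 and Wap led at that other end too. Their weights on the third component were -0.138, -0.123 and -0.120, against -0.0947, -0.0942 and -0.0827 on the first and 0.0750 for Serpinb7 on the third. Tumors 1, 2 and 3 each correlated best with another of the 3, at 0.971 and 0.974.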

How the data were processed

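From total RNA labelled with a one-cycle kit, the authors obtained probe set intensities with Affymetrix Expression Console (version not given in the sources used here) and its MAS5 method, and deposited them on a linear scale. All 31 columns of the value table were matched to samples by the labels, and the 11 tumor arrays were used. After 64 control probe sets were left out, 45037 remained, of which 34945 had 1 gene symbol, 932 several and 9160 none, and 204 gene IDs were not matched to RefSeq. A gene was represented by its probe set of highest mean log2(signal + 16) and kept at a median signal of at least 30.

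The members, the 26 gene lists (474 entries, 34 of them not reported here) and the tests were chosen with earlier results of these data known, so the p-values of the list relations are not independent evidence. Named were the 30 genes of largest SD, the 10 of lowest SD at a median of at least 200, the 10 of largest SD with a median under 30 and a highest signal of at least 200, in each list the 3 of largest and the 1 of lowest SD with its defining markers, and for each of 16 lists the 3 genes outside all lists closest to its level. Other genes were named after their values were seen.

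Relations between list levels were tested by permuting tumors (100000 resamples, or all orders for fewer than 10 tumors, two-sided) with Benjamini-Hochberg adjustment over 120 pairs, and over 48 relations with array measures, at an adjusted p of 0.05. The permutation treats the tumors as independent samples, and the labels do not say whether they came from separate animals. The p-values therefore refer to these samples only and would not hold if several tumors came from 1 mouse. The 200 most variable genes were clustered by average linkage on 1 - r and cut at 0.5. Alternatives were no offset, a floor at 30, a filter on a highest signal of at least 100, the mean over probe sets, quantile normalization, other measures of spread, rank correlation, the median over genes and leaving out each tumor, and leaving out tumors 1 to 3 was added after the data were seen. Analyses ran in Python 3.11.15 with numpy 2.4.6, pandas 2.3.3, scipy 1.17.1 and matplotlib 3.10.9, and the scripts were tested on simulated data. The number of arrays limits the precision. Upstream sequences were taken from RefSeq (GRCm38.p6).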

Additional observations from a re-analysis of the deposited data

How the results depend on the processing

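The count of genes with an SD of at least 1, 192 in the analysis above, was 326 with no offset on the log scale, where dim signals spread more. Under the other 6 settings it was 182 to 274, and with each tumor left out in turn 171 to 203. Of the 30 most variable genes 14 remained among the first 30 without tumors 1 to 3, an alternative chosen after seeing the data, 21 to 29 under the other settings, and 25 to 29 with 1 tumor left out. The share of variance on the first component, 31.1%, was 28.42 to 36.11% with 1 tumor left out. The 4 pairs of list levels past the adjusted permutation p of 0.05 became 7 by Spearman's rho, 0 with the median over genes, 0 without the 2 tumors farthest on the x measure and 0 without tumors 1 to 3, where fewer samples remain. With 1 tumor left out they were 2 to 6, and 2 without tumor 2. The milk and hair pair missed the adjusted threshold without tumor 1, 2, 3 or 6 and the fibroblast and endothelial pair without tumor 2, 5 or 10. All 80 alternative values of r for the 4 pairs were positive, 61 of them past the threshold. Apart from the offset and the missing tumors, the cause of these changes was not tested. No paired analysis was possible because only tumors were used and there was no second group to pair them with. Signals below 30 limit what can be said of the low end of milk, hair and muscle genes.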

Other observations

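Some genes were near background in most tumors and high in 1 or a few. Of the genes with a median signal under 30, 47 reached at least 200 in some tumor. H2-Ea, the α chain of an MHC class II molecule, was at 1382 in tumor 4 and at most 6.89 in the other 10. Pax6, a transcription factor of eye and pancreas, was at 691 in tumor 8, 218 in tumor 2 and 55.5 in tumor 7, and at most 25.2 elsewhere. Tumor 8 thus had both the highest Pax6 and, at 3427, the highest Krt4. Lao1, an L-amino acid oxidase found in milk, was at 326, 166 and 1563 in tumors 1 to 3 and at most 22.9 elsewhere. The hair genes Krt35 (251, 306 and 535), Krtap11-1 (336, 288 and 646) and Krtap7-1 (181, 187 and 449) were high in tumors 1 to 3 and at most 50.02, 47.5 and 37.8 in the others.

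Genes of cells outside the lists above showed single tumors too. Ucp1, the uncoupling protein of brown fat, was at 125 in tumor 1 and at most 15.7 in the others, and Cox8b was at 114 in tumor 1 and 43.5 in tumor 3, while Cidea, also a brown fat gene, was highest in tumor 3 (490). Alas2, the haem synthesis enzyme of red cell precursors, was at 390 in tumor 1 and at most 42.5 elsewhere, and Slc4a1, the anion exchanger of red cells, was at 73.2 in tumor 1 and at most 36.5 elsewhere. None of the 4 measured red cell genes passed the filter. Sox10, a factor of Schwann cells and also of mammary progenitors, was at 141, 157 and 252 in tumors 1 to 3 and at most 40.6 in the others, while Mal was highest in tumors 8 and 7 (417 and 343) and Mbp was steady (109 to 162, SD 0.18). Col9a1, a cartilage collagen, was at 339, 236 and 670 in tumors 1 to 3 and at most 56.8 elsewhere (SD 1.478), whereas Col2a1, the main collagen of cartilage, was at most 13.0 in any tumor. Among mast cell genes, Cpa3 and Cma1 were highest in tumor 3 (151 and 103), Hdc in tumor 8 (946) and Mcpt1 in tumor 9 (502).

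Erdr1 and Mid1, which lie at the end of the X chromosome, had patterns of their own. Erdr1 was at 32.3, 32.4 and 64.4 in tumors 5, 6 and 1 and at 763 to 2455 in the other 8 (SD 2.07). Mid1 was at 788, 656 and 342 in tumors 9, 11 and 10, at 114 in tumor 8 and at 27.9 to 61.8 in the others (SD 1.61). Hoxb6 was at 18.2 in tumor 8 and reached 482 in tumor 11 (SD 1.37). Xist ranged from 1317 to 2972 and the Y-linked genes Eif2s3y, Kdm5d and Uty were at most 6.52, 13.3 and 9.61 in any tumor, as in female tissue.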
